A study of Homo sapiens with 18 samples.

Results

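The response to medroxyprogesterone acetate (MPA), a synthetic progestin, was described across all expressed genes in promoter cells, a human endometrial stromal line in which PGR, the progesterone receptor gene, had been activated with a CRISPR guide labelled promoter. The response set 3 libraries of promoter cells in 1 µM MPA against 3 libraries of promoter cells in vehicle, 6 of the 18 libraries of the series, chosen by their labels. The parent cells are THESC, an established immortalised line of stromal cells from the uterine lining, and the labels give promoter cells the genotype PGRB-dominant, meaning that isoform B of the receptor prevails over isoform A. After 24 hours in medium with 2% serum, cells were held for 72 hours in MPA or in 0.01% ethanol, the vehicle, with 2% charcoal-stripped serum. Both groups therefore share the engineering, the blasticidin-containing maintenance medium and the low serum, and the labels do not say whether the line is a clone or a pool. The other lines of the series are U1U2 cells (another guide set, labelled as having equivalent isoforms) and NT cells (non-targeting guide, labelled wild type), each with the same MPA and vehicle groups of 3 libraries. They are used below to test whether a response differed. Their libraries also entered the fit of all 18 libraries, so they helped set the spread and the low-count filter behind each p-value of the promoter response.

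Progesterone binds its receptor in the stromal cell, and the receptor then acts on DNA as a transcription factor. Isoform B differs from isoform A by an added stretch at its amino end that carries a further activation function. In the uterus this signal drives decidualisation, in which fibroblast-like stromal cells stop dividing, remodel their matrix and secrete factors that prepare the lining for an embryo, with FOXO1, HAND2 and BMP2 among the regulators. MPA is more stable than progesterone and also binds the glucocorticoid receptor, so genes known from glucocorticoid biology can answer it. Counts per gene do not separate the transcripts of the PGR isoforms.

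Promoter libraries held 26556660, 26392847 and 22461756 counts in MPA and 31181732, 16806173 and 33418643 counts in vehicle, and mitochondrial genes took 1.63% to 2.15% of them. PGR, the targeted gene, stood at 264 to 475 CPM (counts-per-million, on library sizes scaled by TMM) in the promoter libraries, 226 to 674 CPM in the U1U2 libraries and 76.2 to 153 CPM in the NT libraries, so every promoter library was above every NT library. No pair of replicates agreed within sampling noise. All libraries carry 1 batch label, and nothing in the labels says whether the replicates come from separate cultures, so the spread behind each p-value is that of these samples and may be technical. Stromal markers were abundant, with a summed level of 17620 to 19226 CPM in MPA and 14487 to 17771 CPM in vehicle, and of the 17 tested 3 were higher and 4 lower, while TCF21 had 0 counts in all 6 libraries. Epithelial markers summed to 28.2 to 37.1 CPM in MPA and 36.8 to 58.0 CPM in vehicle, with 2 of 6 tested lower (EPCAM and KRT19) and CLDN3 and MUC16 at 0. Endothelial markers summed to 43.8 to 44.7 CPM in MPA and 70.5 to 82.2 CPM in vehicle, almost all of it TEK, with 1 higher and 2 lower of 3 tested, and CDH5, CLDN5 and ERG at 0. Leukocyte markers summed to 2.97 to 3.71 CPM in MPA and 4.64 to 5.00 CPM in vehicle, with 1 higher and 1 lower of 2 tested, and 5 markers at 0. Pericyte and smooth muscle markers summed to 599 to 719 CPM in MPA and 599 to 691 CPM in vehicle, with 2 of 8 tested lower. Leaving out 1 library at a time, the stromal markers called higher were 5 without promoter vehicle replicate 2 and those called lower 2 without promoter vehicle replicate 2 or promoter MPA replicates 1, 2 or 3, and the epithelial markers called lower were 1 without promoter vehicle replicates 1 or 3 or promoter MPA replicate 1, or 0 without promoter MPA replicates 2 or 3. The endothelial markers called higher were 0 without promoter vehicle replicates 2 or 3 or promoter MPA replicate 3, and the pericyte markers called higher 1 without promoter vehicle replicate 3. The part of these markers in the results below was not tested.

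MPA changed a broad part of the transcriptome of promoter cells, with slightly more genes lower than higher and with the larger fold changes among the genes that rose. Of 15558 tested genes, 2333 were called at an adjusted p under 0.05 by edgeR's quasi-likelihood test, which is 15%. They divide into 1029 genes higher in MPA (6.61%) and 1304 genes lower (8.38%). A change tested to exceed 2-fold was called for 247 genes (1.59%), of which 150 were higher (0.964%) and 97 lower (0.623%). Genes that rose had a median log2 fold change of 0.72, and 119 of them passed a log2 fold change of 2, or 11.6%. Genes that fell had a median of -0.69, and 82 of them lay beyond -2, or 6.29%. The median over all tested genes was -0.00. Mean levels of the genes called higher summed to 140476 CPM in MPA and 87860 CPM in vehicle, and those of the genes called lower to 72516 CPM in MPA and 108949 CPM in vehicle. The 3 MPA libraries lay wholly above the 3 vehicle libraries for 2744 genes (17.6% of those tested) and wholly below them for 2816 (18.1%), so separation alone is common here and most separated genes were not called. Among called genes the groups were separate for 99.5% of those higher and 98.9% of those lower. Lack of overlap therefore adds little to any call described below. Calls were more frequent among protein-coding genes, with 858 higher and 1168 lower of 12297 tested, than among long non-coding genes, with 118 higher and 84 lower of 1904, and pseudogenes gave 3 higher and 4 lower of 349. Leaving out promoter vehicle replicate 1 reduced the called genes to 1555, 661 of them higher. In bulk RNA, fewer cells of a kind and less of a transcript per cell cannot be told apart.

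**Figure D1:**
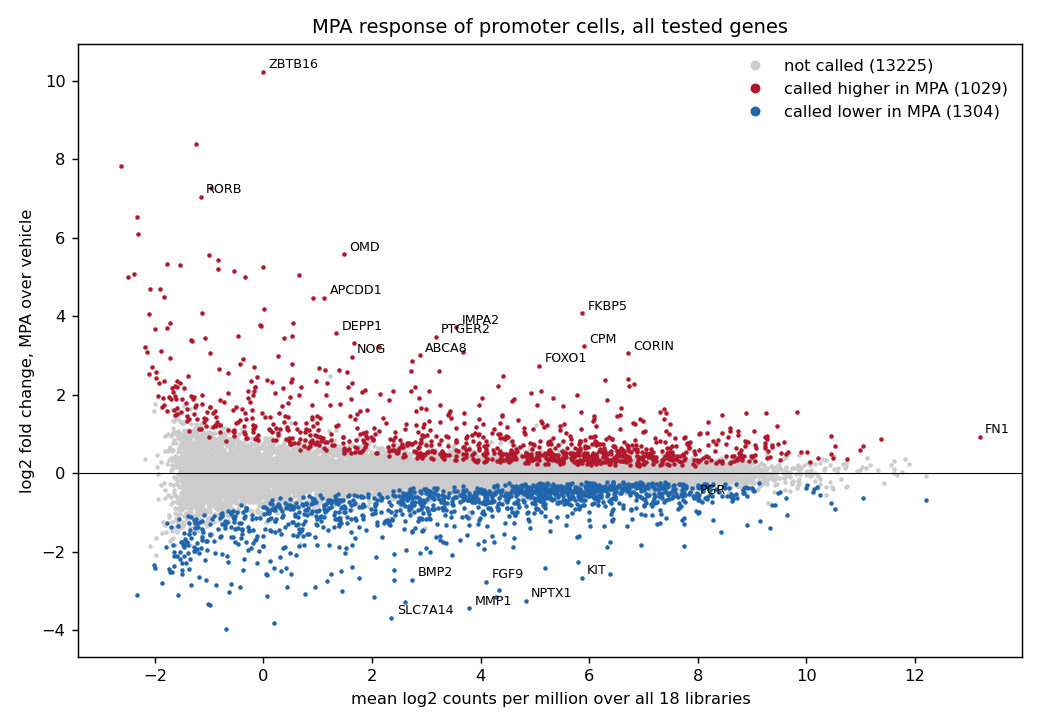
Each point is a tested gene, with its mean log2 CPM over all 18 libraries on the x axis and its log2 fold change, MPA over vehicle in promoter cells, on the y axis. Red points are the 1029 genes called higher in MPA and blue points the 1304 called lower, and the labelled genes reach from ZBTB16 at the top to SLC7A14 at -3.68.

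The 15 largest rises were taken among called genes at a mean log2 CPM of at least 1, without overlap between MPA and vehicle libraries. They included a matrix proteoglycan, a WNT inhibitor, a receptor chaperone and metabolic enzymes. OMD (ENSG00000127083, chr9:92414245-92424461, minus strand, GRCh38), which encodes osteomodulin, a small leucine-rich proteoglycan, had 15.7, 16.2 and 16.7 CPM in MPA and 0.346, 0.314 and 0.334 CPM in vehicle, a log2 fold change of 5.58 ± 0.21 (SE; adjusted p = 4.5e-12). APCDD1 (ENSG00000154856, chr18:10454628-10489948, plus strand, GRCh38), a membrane inhibitor of WNT signalling, had 18.1, 17.0 and 16.6 CPM in MPA and 0.629, 0.690 and 0.946 CPM in vehicle (4.48 ± 0.18; adjusted p = 1.07e-11). FKBP5 (ENSG00000096060, chr6:35573585-35728583, minus strand, GRCh38), a co-chaperone of HSP90 that lowers the hormone affinity of steroid receptors and is itself a classical target of them, had 354, 334 and 356 CPM in MPA and 17.9, 23.8 and 20.7 CPM in vehicle (4.07 ± 0.10; adjusted p = 1.6e-14). In each of these 3 genes every MPA library lay at least 10-fold above every vehicle library. IMPA2, which releases free inositol from inositol phosphate, had 65.1, 58.1 and 52.0 CPM in MPA and 4.65, 5.08 and 3.70 CPM in vehicle (3.72 ± 0.15). DEPP1, a FOXO-induced regulator of autophagy, had 11.5, 11 and 8.35 CPM in MPA and 0.911, 0.565 and 1.00 CPM in vehicle (3.57 ± 0.25). PTGER2, the EP2 receptor for prostaglandin E2, had 30.1, 32.3 and 30.3 CPM in MPA and 2.51, 3.58 and 2.42 CPM in vehicle (3.48 ± 0.16). The groups lay far apart in all 3 of these genes.

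The other genes of these 15 largest rises are FOXO1, described further on, and 8 more. CORIN, a transmembrane protease that activates atrial natriuretic peptide, had 354, 342 and 342 CPM in MPA and 31.9, 62.1 and 31.8 CPM in vehicle (3.06 ± 0.18). The gene CPM, which encodes the membrane enzyme carboxypeptidase M, had 247, 249.7 and 253 CPM in MPA and 26.2, 29.3 and 24.5 CPM in vehicle (3.23 ± 0.08). CCN4, a matricellular protein and WNT target, had 48.9, 49.8 and 55.3 CPM in MPA and 6.16, 7.66 and 4.68 CPM in vehicle (3.08 ± 0.17). For all of these the groups were far apart, with vehicle replicate 2 the highest vehicle library each time. PAPLN, the matrix glycoprotein papilin, stood at 8.37 to 9.19 CPM in MPA and 0.691 to 1.51 CPM in vehicle (3.31 ± 0.23), and NOG, which encodes the BMP antagonist noggin, at 9.75 to 12.2 CPM in MPA and 0.879 to 2.23 CPM in vehicle (2.96 ± 0.39). ABCA8, a lipid transporter, stood at 15.2 to 18.8 CPM in MPA and 1.78 to 3.33 CPM in vehicle (3.0 ± 0.24), and CHST7, a sulfotransferase that modifies chondroitin, at 21.6 to 23.0 CPM in MPA and 2.59 to 4.02 CPM in vehicle (2.87 ± 0.19). RASL10B, a Ras-like GTPase, stood at 11.7 to 18.2 CPM in MPA and 1.32 to 1.61 CPM in vehicle (3.23 ± 0.23). Lack of overlap between the groups was a condition for entry among these 15 genes, so it adds nothing to their calls.

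Hormone-bound progesterone and glucocorticoid receptors recognise a palindrome of AGAACA and TGTTCT arms 3 bases apart, so the promoters of responding genes were read for it. RefSeq promoter windows on GRCh38.p14, 250 bases before to 50 after each start, matched 11003 of the 15558 tested genes. The relaxed palindrome GNACANNNTGTNC, read on both strands, was present in 0.209% of the tested promoters, 0.678% of those of genes called higher (5 of 737) and 0.315% of those of genes called lower (3 of 952). A single AGAACA arm on either strand was present in 9.05% of tested promoters, 10.0% of those called higher and 9.03% of those called lower. The strict palindrome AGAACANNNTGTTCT, a special case of the relaxed form, was in no tested promoter. Among genes past 2-fold higher, 2 of 107 promoters held the relaxed form, those of CHST7 and TXNIP, and no promoter of the 64 genes past 2-fold lower did. These are shown with that of FKBP5, which held a single arm, with the match in capitals and each sequence running 5′ to 3′ on the gene's strand. The CHST7 window is chrX:46573515-46573814 (plus strand), the TXNIP window chr1:145996530-145996829 (minus strand) and the FKBP5 window chr6:35728534-35728833 (minus strand).

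CHST7: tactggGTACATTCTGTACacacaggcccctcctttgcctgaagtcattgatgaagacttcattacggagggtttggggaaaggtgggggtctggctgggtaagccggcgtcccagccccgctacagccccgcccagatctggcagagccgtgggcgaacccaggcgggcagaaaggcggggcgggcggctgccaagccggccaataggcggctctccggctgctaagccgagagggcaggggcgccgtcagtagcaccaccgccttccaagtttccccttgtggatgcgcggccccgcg
TXNIP: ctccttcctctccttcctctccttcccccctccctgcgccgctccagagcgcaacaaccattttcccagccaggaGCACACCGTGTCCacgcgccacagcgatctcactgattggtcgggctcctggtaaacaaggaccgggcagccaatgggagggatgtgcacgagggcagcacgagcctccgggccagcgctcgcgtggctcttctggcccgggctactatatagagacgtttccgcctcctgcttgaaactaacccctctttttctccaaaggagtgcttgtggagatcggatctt
FKBP5: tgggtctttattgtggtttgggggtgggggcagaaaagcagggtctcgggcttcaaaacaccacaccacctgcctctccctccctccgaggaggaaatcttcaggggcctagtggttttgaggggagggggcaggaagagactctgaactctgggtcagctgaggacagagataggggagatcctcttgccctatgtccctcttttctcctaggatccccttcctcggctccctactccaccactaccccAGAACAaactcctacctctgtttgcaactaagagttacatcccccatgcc

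The CHST7 match begins at base 7 of its window, the TXNIP match at base 76 and the FKBP5 arm at base 251, the annotated start itself. TXNIP, an inhibitor of thioredoxin and of glucose uptake, had 519, 494 and 493 CPM in MPA and 169, 223 and 150.5 CPM in vehicle (1.48 ± 0.15). A match describes these letters only, and promoters without it may carry the element elsewhere.

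By the same rule, the 15 largest falls included secreted proteases, growth factors and genes best known from neurons. SLC7A14 (ENSG00000013293, chr3:170459584-170586074, minus strand, GRCh38), a lysosomal amino acid transporter, had 1.05, 0.761 and 1.04 CPM in MPA and 11.4, 10.3 and 14.7 CPM in vehicle (-3.68 ± 0.19; adjusted p = 2.14e-10). MMP1 (ENSG00000196611, chr11:102789920-102798160, minus strand, GRCh38), the interstitial collagenase, had 4.56, 4.03 and 4.88 CPM in MPA and 54.2, 45.3 and 46.2 CPM in vehicle (-3.44 ± 0.11; adjusted p = 9.13e-13). KIT (ENSG00000157404, chr4:54657918-54740715, plus strand, GRCh38), the receptor tyrosine kinase for stem cell factor, had 17.5, 16.0 and 16.3 CPM in MPA and 107, 104 and 105 CPM in vehicle (-2.67 ± 0.12; adjusted p = 2.9e-11). Each vehicle library of these genes was at least 5-fold above each MPA library. CPA4, a secreted carboxypeptidase, had 1.85, 1.56 and 1.44 CPM in MPA and 17.0, 16.7 and 13.9 CPM in vehicle (-3.28 ± 0.20). NPTX1, neuronal pentraxin 1, had 6.74, 7.76 and 7.54 CPM in MPA and 65.9, 64.3 and 79.4 CPM in vehicle (-3.25 ± 0.12). TNFRSF11B, which encodes osteoprotegerin, the decoy receptor for RANKL, had 7.16, 7.11 and 7.13 CPM in MPA and 61.8, 54.0 and 51.7 CPM in vehicle (-2.97 ± 0.14). Lack of overlap was again required of all these genes. FGF9, a growth factor of endometrial stroma, stood at 4.11 to 4.95 CPM in MPA and 26.2 to 35.8 CPM in vehicle (-2.77 ± 0.16), and BMP2, a ligand needed for decidualisation in mouse, at 1.72 to 2.24 CPM in MPA and 9.90 to 13.9 CPM in vehicle (-2.71 ± 0.16). GRIN2A, a subunit of the NMDA glutamate receptor, stood at 0.993 to 1.58 CPM in MPA and 9.60 to 11.7 CPM in vehicle (-3.15 ± 0.20), and HTR1D, a serotonin receptor, at 0.866 to 0.913 CPM in MPA and 5.37 to 6.73 CPM in vehicle (-2.74 ± 0.21). SIPA1L2, a regulator of Rap GTPases, stood at 4.22 to 4.52 CPM in MPA and 31.3 to 45.0 CPM in vehicle (-3.15 ± 0.14). The remaining large falls, at log2 fold changes between -3.00 and -2.57, were those of SYT16, the matricellular gene CCN3, the glycosyltransferase GALNT15 and the long non-coding RNA LINC02844.

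**Figure D2:**
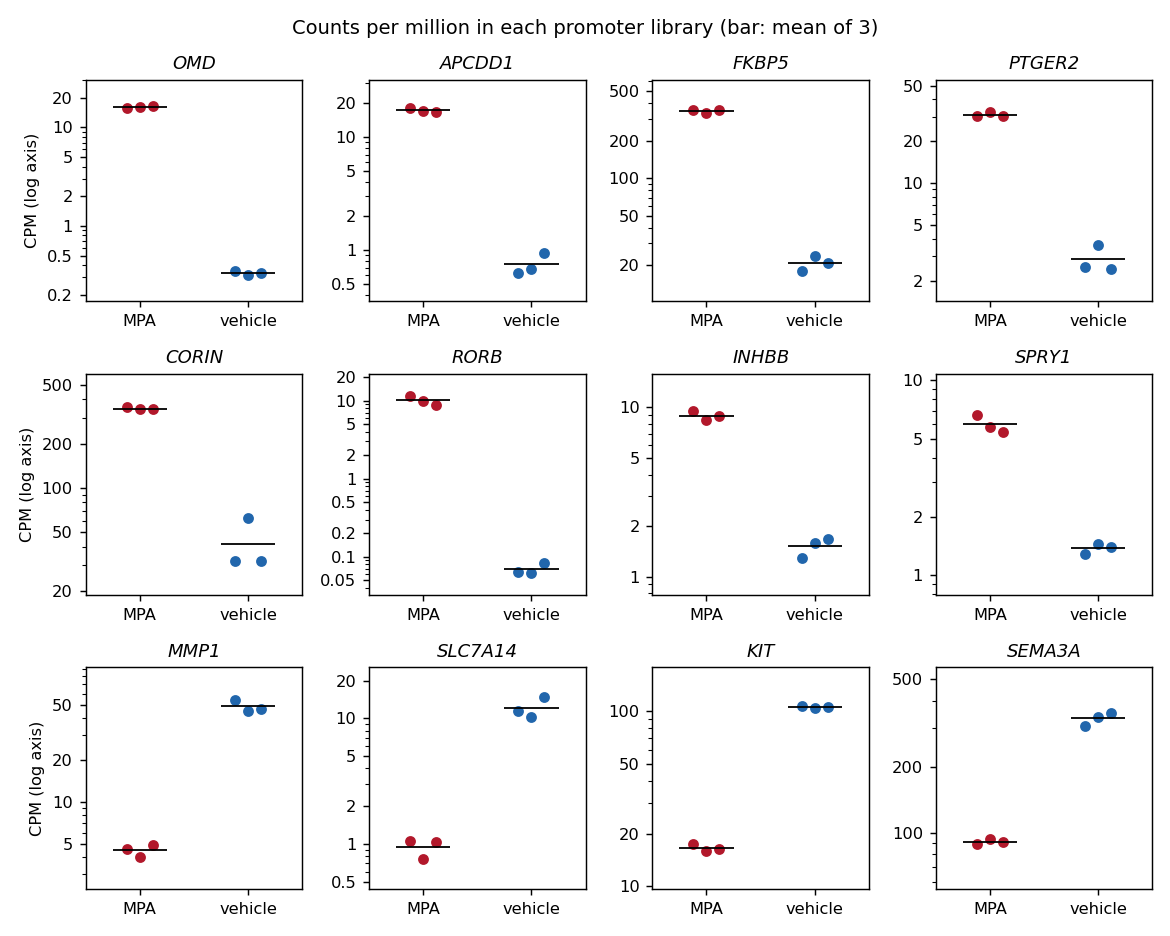
CPM in each promoter library, 1 panel per gene on its own log axis, with MPA at left in red and vehicle at right in blue and a bar at each mean of 3 libraries. In all 12 panels the MPA libraries and the vehicle libraries form separate bands, 8 with MPA above and 4 with MPA below.

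In absolute abundance the gains were led by matrix genes. FN1, fibronectin, had 13883, 13612 and 14357 CPM in MPA and 7570.5, 9084 and 5271 CPM in vehicle (0.93 ± 0.19). COL1A1, the alpha-1 chain of type I collagen, had 4085, 3420.2 and 3498 CPM in MPA and 1796, 2117 and 2076 CPM in vehicle (0.88 ± 0.17). ALCAM, an adhesion molecule of the immunoglobulin family, had 1803, 1886 and 1945 CPM in MPA and 569, 733 and 607 CPM in vehicle (1.56 ± 0.11). None of these 3 overlapped between the groups, as held for nearly all called genes. WNT5A, a ligand of non-canonical WNT signalling, stood at 1856 to 2013 CPM in MPA and 907 to 1198 CPM in vehicle and LTBP1, which stores latent TGF-beta in the matrix, at 927 to 986 CPM in MPA and 261 to 391 CPM in vehicle. FBN1, THBS1, COL5A2 and the protease ADAMTS1 were also among the 10 largest gains. The largest losses were those of GREM1, a secreted BMP antagonist, with 3429, 3557 and 3823 CPM in MPA and 5699, 7042 and 4551 CPM in vehicle (-0.68 ± 0.15), and of SCD, the desaturase that makes oleate, with 1687, 1639 and 1727 CPM in MPA and 2748, 2906 and 2141 CPM in vehicle (-0.63 ± 0.13). GJA1, the gap-junction protein connexin 43, stood at 924 to 965 CPM in MPA and 1498 to 2248 CPM in vehicle (-0.91 ± 0.14), CTSK, cathepsin K, at 309 to 336 CPM in MPA and 708 to 941 CPM in vehicle (-1.40 ± 0.17), and IGFBP3, an IGF carrier, at 288 to 309.7 CPM in MPA and 657 to 780.3 CPM in vehicle (-1.22 ± 0.10). RND3, AKAP12, MMP2, RHOBTB3 and CYBRD1 completed the 10 largest losses, but RHOBTB3 was not called without promoter vehicle replicate 2 (adjusted p = 0.0609), nor CYBRD1 without that library or without promoter MPA replicate 1 (adjusted p up to 0.0706).

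Some genes were near silent in vehicle and had more counts in MPA, though for some of them these were few. Ratios in this paragraph compare counts pooled over each group, relative to pooled TMM-scaled library sizes. ZBTB16, the zinc-finger factor PLZF and a known target of progestins and glucocorticoids, had 1552 counts over the MPA libraries and 1 count over the vehicle libraries, a ratio of 1732 with a 95% counting interval of 310 to 68457. ALOX15B, a lipoxygenase, had 434 counts in MPA and 1 in vehicle, a ratio of 484 (86.5 to 19175). GGT5, an enzyme of leukotriene and glutathione metabolism, had 125 counts in MPA and 3 in vehicle, a ratio of 46.5 (15.6 to 229). These intervals cover counting error only. CNR1, the cannabinoid receptor CB1, had 89 counts in MPA and 0 in vehicle, at least 33.1-fold higher with 3 counts over the vehicle group taken as the floor. GUCY1A2, a subunit of the nitric oxide receptor guanylate cyclase, had 41 counts in MPA and 1 in vehicle, a ratio of 45.8 (7.77 to 1851). C5AR2, a complement receptor, had 36 counts in MPA and 0 in vehicle, at least 13.4-fold higher. In all, 14 of the 1029 genes called higher had at most 3 counts over the vehicle libraries. In the other direction 1 of the 1304 genes called lower had at most 3 counts over the MPA libraries, an unnamed locus with 2 counts in MPA and 23 in vehicle. The low-count filter asks for counts in some libraries only, so a gene near 0 in 1 group was tested only because other libraries were higher. These numbers of genes therefore depend on the filter, and no contrast of directions is drawn from them. RORB, an orphan nuclear receptor of the circadian and retinal programmes, had 11.4, 9.97 and 8.76 CPM in MPA and 0.0629, 0.0628 and 0.0835 CPM in vehicle (7.04 ± 0.28; adjusted p = 7.68e-12), and every MPA library lay over 100-fold above every vehicle library.

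Of 36 steroid receptors, chaperones and coregulators, 5 rose and 5 fell, a call rate of 27.8%, with a median of -0.11. For this and each list below, the shares over all tested genes were 6.61% higher and 8.38% lower, 15% in either direction. Every list was chosen with earlier results of these data known. PGR itself, the activated gene, had 264, 303 and 280.3 CPM in MPA and 433, 475 and 395 CPM in vehicle (-0.62 ± 0.12; adjusted p = 0.00149), and each MPA library was below each vehicle library. NR3C1, the glucocorticoid receptor, had 218, 232 and 229.7 CPM in MPA and 252, 279.7 and 246 CPM in vehicle and was not called (adjusted p = 0.119). The risers besides FKBP5 included DNAJB4, an HSP40 co-chaperone, at 274 to 304 CPM in MPA and 86.3 to 106 CPM in vehicle (1.55 ± 0.13) and the coactivator NCOA3 (0.38 ± 0.07), and the fallers besides PGR included PGRMC1, a membrane-associated haem protein, at 137 to 144 CPM in MPA and 189 to 254 CPM in vehicle (-0.64 ± 0.13). Leaving out 1 library at a time, the count of fallers was 2 without promoter vehicle replicate 1 or promoter MPA replicate 1, or 3 without promoter vehicle replicate 2 or promoter MPA replicates 2 or 3.

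Of 26 genes listed as induced by steroid receptors in other settings, 19 rose and 1 fell, with a median log2 fold change of 1.02. The list was chosen with earlier results of these data known, so its high share of risers is not independent support. ERRFI1, a feedback inhibitor of the EGF receptor, had 248, 246 and 241 CPM in MPA and 46.5, 56.4 and 48.2 CPM in vehicle (2.29 ± 0.09). RGCC, a regulator of the cell cycle, had 107, 115 and 119 CPM in MPA and 24.2, 29.1 and 26.4 CPM in vehicle (2.10 ± 0.09). IRS2, an adaptor of insulin and IGF receptors, had 299, 316 and 316 CPM in MPA and 86.2, 116 and 96.8 CPM in vehicle (1.64 ± 0.11). These 3 had no overlap between groups. TSC22D3, the glucocorticoid-induced leucine zipper, stood at 146 to 159.6 CPM in MPA and 42.0 to 62.5 CPM in vehicle (1.47 ± 0.21), CRISPLD2, a secreted matrix protein, at 130.4 to 159 CPM in MPA and 42.1 to 46.5 CPM in vehicle (1.66 ± 0.10), and PER1, a clock repressor with a steroid-responsive promoter, at 5.33 to 9.30 CPM in MPA and 0.816 to 1.76 CPM in vehicle (2.30 ± 0.29). GLUL, glutamine synthetase, stood at 259 to 288 CPM in MPA and 131 to 135 CPM in vehicle (1.01 ± 0.07) and TIPARP at 378 to 416 CPM in MPA and 172 to 212 CPM in vehicle (1.03 ± 0.12). SOCS3, an inhibitor of cytokine receptor signalling, was the member that fell (-1.28 ± 0.31).

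Transcription factors that shape stromal identity moved in both directions. FOXO1 (ENSG00000150907, chr13:40469953-40666597, minus strand, GRCh38), a central factor of decidualisation, had 110.4, 121 and 116 CPM in MPA and 16.4, 18.3 and 17.6 CPM in vehicle (2.73 ± 0.12; adjusted p = 3.71e-11). HAND2, which in mouse uterus represses FGF ligands of the stroma, had 56.9, 49.5 and 44.7 CPM in MPA and 11.9, 11.9 and 18.3 CPM in vehicle (1.83 ± 0.20). Neither overlapped between groups. Of 23 FOXO factors and targets 7 rose and 2 fell, among them FOXO3 at 0.61 ± 0.08, and the count of fallers was 1 without promoter vehicle replicate 1 or promoter MPA replicates 2 or 3. Of 44 developmental factors 9 rose and 5 fell. SIX2 stood at 4.29 to 6.67 CPM in MPA and 1.00 to 1.19 CPM in vehicle (2.20 ± 0.18), NR2F1, which encodes COUP-TFI, at 109 to 114 CPM in MPA and 38.6 to 48.4 CPM in vehicle (1.37 ± 0.10), and the mesenchymal factors ZEB1 at 504 to 519 CPM in MPA and 227 to 271 CPM in vehicle (1.02 ± 0.10) and SNAI2 at 389 to 402 CPM in MPA and 162 to 227 CPM in vehicle (1.01 ± 0.14). The fallers included FOXL2 (-0.89 ± 0.17) and TWIST2 (-0.81 ± 0.12). Of 16 KLF and SP factors 5 rose and 0 fell, KLF15 most (2.35 ± 0.23) and KLF9, a progesterone receptor partner, at 84.3 to 94.9 CPM in MPA and 45.4 to 59.1 CPM in vehicle (0.74 ± 0.13). Of 21 immediate early and AP-1 factors 4 rose and 1 fell, a call rate of 23.8% beside 15% of all tested genes. FOS had 2.45, 2.13 and 1.99 CPM in MPA and 0.377, 0.628 and 0.557 CPM in vehicle (2.10 ± 0.27) and JUN was the member that fell (-0.41 ± 0.12). The number of these that rose was 2 without promoter vehicle replicates 1 or 3 or promoter MPA replicate 1, and the count of fallers was 0 without promoter vehicle replicates 2 or 3 or promoter MPA replicates 1, 2 or 3.

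Of 30 decidual regulators and products, 6 rose and 8 fell, with a median of -0.04 beside -0.00 over all genes. FOXO1, HAND2 and CNR1 were the large rises. The falls included BMP2, S100A4, a calcium-binding protein, at 3.46 to 4.59 CPM in MPA and 11 to 17.1 CPM in vehicle (-1.76 ± 0.24), CLU, the chaperone clusterin, at 22.3 to 27.8 CPM in MPA and 51.2 to 66.5 CPM in vehicle (-1.31 ± 0.15), GATA2 (-0.62 ± 0.11) and HOXA11, a regulator of uterine identity, at 46.0 to 52.7 CPM in MPA and 72.1 to 76.3 CPM in vehicle (-0.58 ± 0.09). Its neighbour HOXA10 was called at -0.49 ± 0.16 but not without promoter vehicle replicates 2 or 3 or any promoter MPA replicate (adjusted p up to 0.188).

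Several growth-factor ligands and receptors fell. Of 41 receptor tyrosine kinases and ligands, 9 rose and 15 fell, with a median of -0.23. NRG1, a ligand of ERBB receptors, had 8.55, 9.74 and 8.04 CPM in MPA and 31.5, 29.3 and 28.1 CPM in vehicle (-1.75 ± 0.10). KITLG, the ligand of KIT, had 57.3, 55.7 and 56.6 CPM in MPA and 90.6, 109.5 and 95.7 CPM in vehicle (-0.80 ± 0.12), so ligand and receptor fell together. PDGFC (-0.58 ± 0.10) and the ephrin receptor EPHA5 (-2.42 ± 0.33) also fell. The risers included HGF, hepatocyte growth factor, at 270.2 to 279 CPM in MPA and 164 to 208 CPM in vehicle (0.54 ± 0.12), ANGPT1, the ligand of TEK, at 527 to 552 CPM in MPA and 273 to 386 CPM in vehicle (0.70 ± 0.12), and PDGFD (0.62 ± 0.13), and their number was 5 without promoter MPA replicate 2. In the FGF and MAPK feedback list of 25 genes, 3 rose and 6 fell. SPRY1, an inhibitor of Ras signalling, had 6.67, 5.78 and 5.46 CPM in MPA and 1.29, 1.44 and 1.39 CPM in vehicle (2.12 ± 0.15), while the MAPK phosphatase gene DUSP4 stood at -1.94 ± 0.39. In the IGF axis of 20 genes, 6 rose and 3 fell. IGF1 had 1.62, 1.22 and 1.81 CPM in MPA and 0.0943, 0.188 and 0.167 CPM in vehicle (3.38 ± 0.37), and the binding protein IGFBP5 had 2.67, 2.32 and 2.53 CPM in MPA and 13.3, 10.7 and 17.4 CPM in vehicle (-2.47 ± 0.24). PAPPA2, a protease that cuts IGF-binding proteins, stood at 4.93 to 6.01 CPM in MPA and 1.86 to 2.32 CPM in vehicle (1.45 ± 0.19), and STC1, a secreted inhibitor of pappalysin proteases, at 3.80 to 4.79 CPM in MPA and 9.48 to 14.6 CPM in vehicle (-1.50 ± 0.18).

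Among 49 genes of the BMP, TGF-beta and activin pathway, 10 rose and 10 fell. INHBB, the beta-B subunit of activin and inhibin, had 9.57, 8.45 and 8.85 CPM in MPA and 1.29, 1.57 and 1.67 CPM in vehicle (2.57 ± 0.16). ID1, a target of BMP signalling, had 5.50, 4.60 and 4.74 CPM in MPA and 1.63, 1.07 and 1.61 CPM in vehicle (1.74 ± 0.27), whereas ID2 stood at 8.96 to 9.13 CPM in MPA and 12.8 to 14.9 CPM in vehicle (-0.60 ± 0.13). BMP antagonists divided, with noggin higher and GREM1 lower, as was the activin binder FST, follistatin (-0.59 ± 0.12). Among 33 WNT genes 7 rose and 4 fell. The secreted antagonist SFRP1 (-1.87 ± 0.21) and the ligand WNT2 (21.9 to 25 CPM in MPA and 67.0 to 77.7 CPM in vehicle; -1.59 ± 0.09) fell, and AXIN2, a feedback target of beta-catenin, had 3.13, 3.08 and 3.21 CPM in MPA and 2.07, 1.51 and 1.36 CPM in vehicle (0.92 ± 0.17). Of 19 NOTCH and hedgehog genes 6 rose and 2 fell. HHIP, which traps hedgehog ligands, had 20.3, 21.2 and 23.1 CPM in MPA and 7.86, 7.41 and 8.79 CPM in vehicle (1.42 ± 0.15), the ligand-binding GAS1 stood at 27.5 to 33.4 CPM in MPA and 9.30 to 12.7 CPM in vehicle (1.49 ± 0.13), and PTCH1, receptor and target, at 0.72 ± 0.14. The signal transducer SMO (-0.94 ± 0.25) and the co-receptor BOC (-1.17 ± 0.20) fell. The count of fallers was 1 without promoter vehicle replicate 3 or promoter MPA replicate 3.

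More matrix genes were called higher than lower. Of 49 laminins and other matrix glycoproteins 19 rose and 7 fell, with a median of 0.19, and the count of fallers was 4 without promoter vehicle replicate 1 or promoter MPA replicates 2 or 3. LAMA2 (ENSG00000196569, chr6:128883141-129516569, plus strand, GRCh38), the laminin alpha-2 chain of muscle and stromal basement membranes, had 59.0, 56.6 and 56.4 CPM in MPA and 17.0, 19.2 and 15.6 CPM in vehicle (1.74 ± 0.10; adjusted p = 5.05e-10). LAMB1, the beta-1 chain, had 874, 826 and 860.2 CPM in MPA and 471, 472 and 405 CPM in vehicle (0.93 ± 0.10). LAMA4, a chain of vascular laminins, had 114, 112 and 107 CPM in MPA and 189, 192 and 176 CPM in vehicle (-0.75 ± 0.08) and so ran the other way. LAMA3 (2.78 ± 0.23), SPARCL1 (3.45 ± 0.44) and the microfibril genes MFAP5 (1.46 ± 0.12) and FBN2 (1.08 ± 0.12) rose as well, and SPON2 fell (-1.32 ± 0.29). Of 24 collagen chains 8 rose and 4 fell, with a median of 0.29. COL5A1, a regulator of fibril diameter, stood at 744 to 899 CPM in MPA and 471 to 509.6 CPM in vehicle (0.71 ± 0.11) and COL7A1, the anchoring-fibril collagen, at 1.31 ± 0.26. The number of collagens that fell was 1 without promoter vehicle replicate 1 or promoter MPA replicate 3, 2 without promoter vehicle replicate 3, or 0 without promoter MPA replicate 2. Of 31 proteoglycan and hyaluronan genes 8 rose and 7 fell. Beside OMD, its relatives OGN (4.49 to 4.63 CPM in MPA and 0.691 to 1.07 CPM in vehicle; 2.29 ± 0.22) and ASPN (23.2 to 27.3 CPM in MPA and 11.1 to 14.1 CPM in vehicle; 1.00 ± 0.16) rose, while FMOD (3.75 to 4.86 CPM in MPA and 9.07 to 9.93 CPM in vehicle; -1.15 ± 0.17), PRELP (6.55 to 8.59 CPM in MPA and 20.3 to 26.6 CPM in vehicle; -1.59 ± 0.15) and LUM (-0.82 ± 0.14) of the same small leucine-rich family fell. VCAN, versican, stood at 104 to 131 CPM in MPA and 67.9 to 81 CPM in vehicle (0.70 ± 0.10), and HAS2, which makes hyaluronan, at 20.6 to 24.0 CPM in MPA and 33.0 to 40.2 CPM in vehicle (-0.68 ± 0.11).

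More matrix proteases and inhibitors were called lower than higher. Of 44 metalloproteases and inhibitors 6 rose and 13 fell. MMP3, stromelysin 1, had 0.678, 0.418 and 0.497 CPM in MPA and 5.63, 2.57 and 5.04 CPM in vehicle (-3.07 ± 0.31), MMP2, gelatinase A, had 553, 446 and 484 CPM in MPA and 930.2, 872 and 774 CPM in vehicle (-0.80 ± 0.16), and MMP10 stood at -3.10 ± 0.55. ADAMTS5, an aggrecanase, had 112, 113 and 104 CPM in MPA and 240.1, 294 and 267 CPM in vehicle (-1.28 ± 0.14). In contrast ADAMTS2, which trims the amino ends of procollagens, had 299, 278 and 280.0 CPM in MPA and 56.0, 59.1 and 46.5 CPM in vehicle (2.41 ± 0.12), and ADAMTS1 rose by 1.21 ± 0.10. The number that rose was 3 without promoter vehicle replicate 1. Of 23 plasminogen, coagulation and serpin genes 5 rose and 8 fell. PLAT, tissue plasminogen activator, had 239.8, 211 and 212 CPM in MPA and 89.1, 90.9 and 83.0 CPM in vehicle (1.33 ± 0.12). PLAU, urokinase, had 12.1, 11.8 and 11 CPM in MPA and 31.6, 29.2 and 26.6 CPM in vehicle (-1.32 ± 0.18), so the 2 activators moved apart. SERPINB7 (-1.63 ± 0.13) and the protease-activated receptor F2RL1 (-1.84 ± 0.19) fell.

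Contractile and myofibroblast genes had 12 risers and 2 fallers among 43, with a median of 0.23. ANKRD1, a stretch-responsive nuclear protein, had 30.5, 34.8 and 37.3 CPM in MPA and 5.91, 4.52 and 6.21 CPM in vehicle (2.61 ± 0.15). ACTG2, smooth muscle gamma actin, had 122, 116 and 100.4 CPM in MPA and 44.4, 44.1 and 34.5 CPM in vehicle (1.46 ± 0.19), whereas MYLK, the myosin light chain kinase, stood at 206 to 218 CPM in MPA and 259 to 280.4 CPM in vehicle (-0.36 ± 0.08). The integrin subunits ITGA1 (1.15 ± 0.10) and ITGA5 (1.02 ± 0.18) were among the risers. Of 34 angiogenic and vascular factors 11 rose and 7 fell. NRP2, a receptor for VEGF and semaphorins, had 305, 292 and 286 CPM in MPA and 115, 112 and 113 CPM in vehicle (1.37 ± 0.08), and PLXNA2, a semaphorin receptor, had 6.67, 5.17 and 6.23 CPM in MPA and 0.849, 1.00 and 0.974 CPM in vehicle (2.68 ± 0.19). The ligand SEMA3A had 89.4, 93.8 and 90.5 CPM in MPA and 305, 338 and 352 CPM in vehicle (-1.86 ± 0.10), and SEMA3D stood at 16.6 to 19.0 CPM in MPA and 42.9 to 52.8 CPM in vehicle (-1.39 ± 0.15). Both receptors were higher and both of these ligands lower in MPA, whereas the ligand SEMA3C rose (0.91 ± 0.11). Of 12 genes of the natriuretic and cGMP axis 3 rose and 1 fell: CORIN, GUCY1A2 and the clearance receptor NPR3 (83.0 to 95.7 CPM in MPA and 25.5 to 29.2 CPM in vehicle; 1.72 ± 0.15) against PDE5A (-0.48 ± 0.12).

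More inflammatory mediators fell than rose. Of 35 cytokines, chemokines and receptors 5 rose and 12 fell. CXCL12, the chemokine of CXCR4, had 194, 174 and 185 CPM in MPA and 519, 528 and 502 CPM in vehicle (-1.48 ± 0.08). The alarmin IL33 had 0.753, 0.266 and 0.181 CPM in MPA and 2.01, 2.07 and 3.15 CPM in vehicle (-2.56 ± 0.35), and LIF, a cytokine of implantation, had 0.414, 0.456 and 0.497 CPM in MPA and 1.04, 1.44 and 1.25 CPM in vehicle (-1.42 ± 0.25). TNFRSF1B, a TNF receptor, was among the risers, at 24.7 to 31.9 CPM in MPA and 8.03 to 10.3 CPM in vehicle (1.59 ± 0.23), and the number of risers was 3 without promoter vehicle replicate 3 or promoter MPA replicate 2. Of 26 NF-kappa-B components and inhibitors 3 rose and 3 fell, and the risers are inhibitors, TNFAIP3 (23.3 to 25.4 CPM in MPA and 7.91 to 9.27 CPM in vehicle; 1.53 ± 0.11), IRAK3 (1.44 ± 0.17) and NFKBIA (0.44 ± 0.08). The call rate of these 26 genes was 23.1%, beside 15% of all tested genes, and their median was -0.01. The 3 that fell are not described here, so the risers give no direction for the list. Of 40 interferon-stimulated genes 3 rose and 9 fell. IFIT1 had 66.7, 55.1 and 56.4 CPM in MPA and 147, 153 and 149 CPM in vehicle (-1.33 ± 0.09), IFIT2 59.4 to 60.2 CPM in MPA and 129 to 144 CPM in vehicle (-1.17 ± 0.08) and IFIT3 90.8 to 105 CPM in MPA and 198 to 215 CPM in vehicle (-1.07 ± 0.08), all RNA-binding antiviral proteins, with no overlap between groups. EPSTI1 was among the risers (0.72 ± 0.09), whose number was 1 without promoter MPA replicate 1. Of 25 complement and antigen presentation genes 2 rose and 3 fell, with C7 at 3.50 ± 0.47 and CLU lowest, and the number that rose was 1 without promoter vehicle replicates 1 or 2 or promoter MPA replicates 1 or 3.

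Many genes of cell division fell, and no member of the mitosis or replication lists rose. Of 61 mitosis and spindle genes 43 fell and 0 rose, with a median of -0.52, and of 52 DNA replication genes 24 fell and 0 rose, with a median of -0.43. The mitosis list summed to 3133, 3606 and 3837 CPM in MPA and 5066, 4755 and 4620.2 CPM in vehicle. CCNB1, cyclin B1, had 65.4, 71.3 and 79.1 CPM in MPA and 158, 148 and 99.5 CPM in vehicle (-0.91 ± 0.22). CDK1, its kinase, had 45.5, 55.0 and 56.9 CPM in MPA and 83.9, 94.1 and 75.8 CPM in vehicle (-0.69 ± 0.11). AURKA, a spindle-pole kinase, had 33.2, 36.1 and 39.9 CPM in MPA and 66.6, 61.8 and 55.1 CPM in vehicle (-0.75 ± 0.15). In these 3 genes every MPA library was below every vehicle library. The replication list summed to 1178, 1237 and 1299 CPM in MPA and 1796, 1611 and 1619.8 CPM in vehicle. RRM2, a subunit of ribonucleotide reductase, had 105, 118 and 121 CPM in MPA and 195, 181 and 178 CPM in vehicle (-0.69 ± 0.08), the sliding clamp PCNA 61.8 to 71.1 CPM in MPA and 87.2 to 107 CPM in vehicle (-0.60 ± 0.14) and MCM4, of the replicative helicase, 70.5 to 76.4 CPM in MPA and 103 to 118 CPM in vehicle (-0.57 ± 0.08). MKI67, a common proliferation marker, had 121, 155 and 148 CPM in MPA and 221, 171 and 196 CPM in vehicle and was not called (adjusted p = 0.0694). DESeq2 called it lower (adjusted p = 0.0477). So did edgeR with only the promoter groups (adjusted p = 0.0122) or with no filter on low counts (adjusted p = 0.000277). The other alternatives did not call it. CCND1, cyclin D1, fell (347 to 358 CPM in MPA and 511 to 576 CPM in vehicle; -0.61 ± 0.08), as did the CDK inhibitor CDKN1B (49.4 to 52.0 CPM in MPA and 68.9 to 86.7 CPM in vehicle; -0.61 ± 0.14), among 3 risers and 6 fallers in 39 CDK inhibitors, D cyclins and p53 targets. The call rate of these 39 genes was 23.1%, beside 15% of all tested genes. The number of replication genes that fell was 14 without promoter vehicle replicate 1, or 12 without promoter MPA replicate 1.

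Sterol synthesis was the metabolic list with the most falls. Of 33 sterol synthesis and uptake genes 15 fell and 1 rose, with a median of -0.52, and the list summed to 2375, 2317 and 2357 CPM in MPA and 3858, 3929 and 3317 CPM in vehicle. HMGCS1, which makes HMG-CoA, had 137, 139.5 and 149 CPM in MPA and 332, 334 and 273 CPM in vehicle (-1.14 ± 0.13). INSIG1, which retains the SREBP activator in the endoplasmic reticulum and is itself an SREBP target, had 203, 208 and 209 CPM in MPA and 468, 530.3 and 411 CPM in vehicle (-1.18 ± 0.10). No vehicle library of either reached down to an MPA library. The exporter ABCA1 was the riser (0.44 ± 0.11), a call lost at adjusted p up to 0.0577 without promoter vehicle replicate 1 or promoter MPA replicate 2. Of 49 fatty acid, triglyceride and ketone genes 4 rose and 7 fell, a call rate of 22.4% beside 15% of all tested genes. G0S2, an inhibitor of adipose triglyceride lipase, had 10.8, 10.0 and 10.9 CPM in MPA and 2.07, 2.26 and 3.15 CPM in vehicle (2.07 ± 0.16), and FABP3, a fatty acid carrier, stood at 14.0 to 16.0 CPM in MPA and 25.2 to 34.6 CPM in vehicle (-1.01 ± 0.16). The count of fallers was 4 without promoter vehicle replicate 1 or promoter MPA replicates 1, 2 or 3. Of 40 glycolysis and hypoxia genes 5 rose and 10 fell, with HIF1A (956 to 1024 CPM in MPA and 498 to 629 CPM in vehicle; 0.80 ± 0.10) among the risers and ENO2 (16.0 to 19.2 CPM in MPA and 33.8 to 40.8 CPM in vehicle; -1.07 ± 0.13) among the fallers, and the count of fallers was 5 without promoter vehicle replicate 1 or promoter MPA replicate 2, or 6 without promoter MPA replicate 3.

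Solute carriers were called in both directions. Of 41 amino acid and other solute carriers 9 rose and 6 fell. SLC7A8, an exchanger of large neutral amino acids, had 20.6, 21.8 and 20.8 CPM in MPA and 4.62, 3.89 and 6.18 CPM in vehicle (2.08 ± 0.21), and SLC7A2, a carrier of arginine and lysine, had 238, 261 and 276 CPM in MPA and 123, 146 and 106 CPM in vehicle (1.05 ± 0.11), in contrast to SLC7A14. Of 37 unfolded protein and ATF4 genes 3 rose and 0 fell, CTH, which makes cysteine, most (13.8 to 14.8 CPM in MPA and 4.84 to 6.76 CPM in vehicle; 1.34 ± 0.15). Their call rate, 8.11%, was below the 15% of all tested genes. Of 26 metallothionein, zinc and iron genes 3 rose and 6 fell. The iron exporter SLC40A1 had 2.49, 1.83 and 2.75 CPM in MPA and 9.15, 11.1 and 8.96 CPM in vehicle (-2.04 ± 0.19). The number that rose was 1 without promoter vehicle replicate 1, and the count of fallers was 3 without promoter vehicle replicate 2.

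Receptors for lipid mediators, amines and peptides were called in both directions. Of 58 G protein-coupled receptors and RGS proteins 12 rose and 18 fell, and the number that rose was 7 without promoter vehicle replicate 1. HTR2B, a serotonin receptor, had 31.5, 31.4 and 34.5 CPM in MPA and 122, 132 and 105 CPM in vehicle (-1.88 ± 0.12), CHRM2, a muscarinic receptor, had 112, 117 and 119 CPM in MPA and 263, 279.9 and 249 CPM in vehicle (-1.18 ± 0.08), and BDKRB2, the bradykinin receptor, had 22.4, 16.8 and 19.2 CPM in MPA and 49.0, 55.0 and 57.7 CPM in vehicle (-1.47 ± 0.13). All 3 were lower in every MPA library. The adrenergic receptors diverged, with ADRA2C at 4.06 to 6.82 CPM in MPA and 0.306 to 0.439 CPM in vehicle (3.84 ± 0.39) and ADRA2A at 4.92 to 6.67 CPM in MPA and 15.9 to 18.8 CPM in vehicle (-1.57 ± 0.16). Of 17 prostaglandin and eicosanoid genes 2 rose and 5 fell. The E2 receptors diverged too, PTGER2 being higher and PTGER4 at 12.6 to 13.3 CPM in MPA and 22.0 to 22.2 CPM in vehicle (-0.76 ± 0.10), and the synthase PTGES stood at 3.16 to 4.22 CPM in MPA and 6.4 to 6.93 CPM in vehicle (-0.88 ± 0.15). The count of fallers was 3 without promoter vehicle replicate 1 or promoter MPA replicates 1 or 2. Of 26 steroid and retinoid metabolism genes 6 rose and 1 fell. HSD11B1, which regenerates cortisol from cortisone, had 12.1, 13.4 and 12.9 CPM in MPA and 0.471, 0.377 and 0.306 CPM in vehicle (5.04 ± 0.23), and RARB, a retinoic acid receptor, had 3.58, 3.20 and 3.52 CPM in MPA and 1.38, 1.76 and 1.42 CPM in vehicle (1.20 ± 0.16). The fall was that of STARD4 (-0.54 ± 0.14), and it was not called without promoter vehicle replicate 2 or promoter MPA replicate 1 (adjusted p up to 0.0677). Of 45 ion channel and synaptic genes 12 rose and 10 fell. GRIA1, an AMPA receptor subunit, had 47.8, 39.1 and 39.3 CPM in MPA and 9.99, 13.7 and 10.7 CPM in vehicle (1.89 ± 0.14), against the fall of GRIN2A, and KCNJ8, a subunit of ATP-sensitive channels, stood at 9.66 to 10.3 CPM in MPA and 18.1 to 21.8 CPM in vehicle (-1.0 ± 0.11).

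Of 21 clock genes 5 rose and 9 fell, a call rate of 66.7%. The repressor PER3 had 3.69, 5.48 and 3.93 CPM in MPA and 15.1, 13.4 and 14.4 CPM in vehicle (-1.71 ± 0.15), against the rise of PER1, and the output factor DBP stood at -1.72 ± 0.37. CIART (2.82 to 3.39 CPM in MPA and 5.77 to 8.68 CPM in vehicle; -1.20 ± 0.17), TEF (-0.82 ± 0.16) and NR1D2, a repressor of BMAL1, at 90.0 to 91.3 CPM in MPA and 129.8 to 146 CPM in vehicle (-0.59 ± 0.11), were also lower. The activators BMAL1 at 25.2 to 26.8 CPM in MPA and 17.1 to 20.3 CPM in vehicle (0.51 ± 0.10) and NPAS2 at 30.4 to 32.1 CPM in MPA and 16.3 to 17.8 CPM in vehicle (0.90 ± 0.09) were higher. All libraries were taken at a single time point, so these values are levels and not phases.

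Housekeeping groups gave no calls in the main edgeR fit, but some under other settings, among them no filter on low counts. Of 79 cytosolic ribosomal protein genes 0 were called, with a median of -0.08, and 1 of them had an unadjusted p under 0.05. Of 70 nuclear-encoded oxidative phosphorylation genes 0 were called, with a median of -0.21, and 10 had an unadjusted p under 0.05. DESeq2 called 0 ribosomal protein genes and 1 oxidative phosphorylation gene, lower in MPA. With only the promoter groups in the edgeR fit, 9 oxidative phosphorylation genes were called lower and 1 higher, and 1 ribosomal protein gene in each direction. Without promoter vehicle replicate 3, 3 oxidative phosphorylation genes were called lower.

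**Figure D3:**
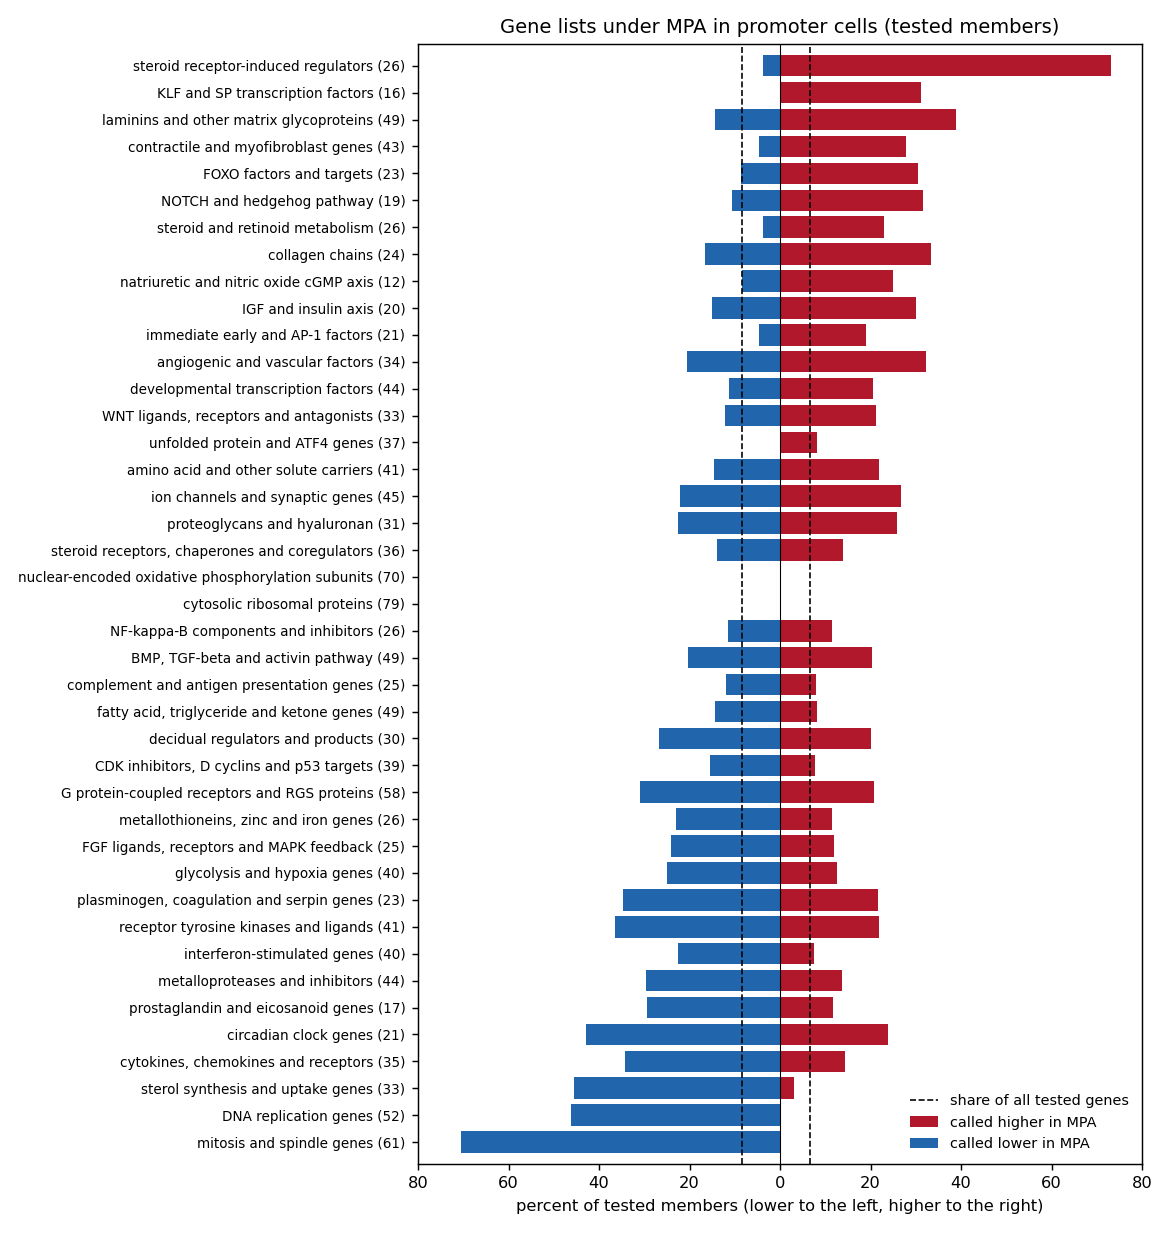
Percent of the tested members of each of the 41 gene lists called higher (red, to the right) or lower (blue, to the left) in MPA, with the number tested in parentheses and dashed lines at the shares of all tested genes, 6.61% and 8.38%. Steroid receptor-induced genes stand at the top, with 19 of 26 higher, and mitosis genes at the bottom, with 43 of 61 lower. The lists were chosen with earlier results of these data known.

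The response of promoter cells was then set against that of NT cells, the non-targeting control, by testing the difference of the responses in the same fit. The question was which genes answered MPA to another extent where PGR had been activated. The difference was called for 239 genes, 1.54% of those tested, of which 126 had the higher response in promoter cells (0.81%) and 113 the lower (0.726%). In 141 of them both lines had the same sign and promoter cells the larger change, in 6 the same sign and the smaller change, and in 92 the estimates had opposite signs. The promoter response itself was called for 221 of the 239. In NT cells the response was called for 914 genes, 5.87% of those tested. FOXO1 had 2.73 ± 0.12 in promoter cells and 0.45 ± 0.12 in NT cells, a difference of 2.28 ± 0.17 (adjusted p = 9.54e-07). APCDD1 had 4.48 ± 0.18 in promoter cells and 1.30 ± 0.21 in NT cells, a difference of 3.17 ± 0.29. DEPP1 had 3.57 ± 0.25 in promoter cells and 0.59 ± 0.29 in NT cells, a difference of 2.97 ± 0.39. The NT estimates of these 3 genes had the same sign and a smaller size. CAMK1G, a calcium-dependent kinase, had 2.01 ± 0.23 in promoter cells and -0.26 ± 0.25 in NT cells, a difference of 2.27 ± 0.34. SLC7A8 had 2.08 ± 0.21 in promoter cells and -0.19 ± 0.21 in NT cells, a difference of 2.27 ± 0.29. SPRY1 had 2.12 ± 0.15 in promoter cells and 0.08 ± 0.14 in NT cells, a difference of 2.04 ± 0.21. G0S2 had 2.07 ± 0.16 in promoter cells and 0.07 ± 0.19 in NT cells, a difference of 2.00 ± 0.25. For these last genes the NT estimates were close to 0. A difference of responses can lie in the vehicle level, the MPA level or both. SPRY1 averaged 1.37 CPM in promoter vehicle and 4.43 CPM in NT vehicle, but 5.97 and 4.69 CPM in MPA. CAMK1G instead averaged 3.16 CPM in promoter vehicle and 3.40 CPM in NT vehicle, but 12.6 and 2.81 CPM in MPA. RORB had 7.04 ± 0.28 in promoter cells and -0.04 ± 0.57 in NT cells, a difference of 7.08 ± 0.85 (adjusted p = 0.000206). CNTN3, a contactin adhesion protein, was the gene called in both lines with opposite signs, at 0.76 ± 0.11 in promoter cells and -0.63 ± 0.11 in NT cells, and was singled out after its values were seen.

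Genes with the more negative response in promoter cells included proteases, receptors and cell-cycle genes. CPA4 had a difference of -1.59 ± 0.27, KIT of -1.32 ± 0.16, HTR2B of -1.34 ± 0.17 and the non-coding RNA HCP5 of -1.38 ± 0.20, each with a smaller negative estimate in NT cells. PIMREG, a mitotic regulator, had -1.07 ± 0.19 in promoter cells and 0.47 ± 0.21 in NT cells, a difference of -1.54 ± 0.29 (adjusted p = 0.00857). Its mean was 9.19 CPM in promoter vehicle and 3.66 CPM in NT vehicle, but 4.37 and 5.07 CPM in MPA, so the lines lay further apart in vehicle. MTFR2, a regulator of mitochondrial fission, had -0.95 ± 0.19 in promoter cells and 0.42 ± 0.21 in NT cells. RMI2, a genome-maintenance protein, had -0.93 ± 0.19 in promoter cells and 0.34 ± 0.20 in NT cells. UCP2, a mitochondrial carrier, had -0.53 ± 0.20 in promoter cells, which was not called by the fit of all groups but was with only the promoter groups, and 0.77 ± 0.22 in NT cells, a difference of -1.30 ± 0.30. The called differences of MTFR2, RMI2 and UCP2 were each lost without promoter vehicle replicate 1, promoter MPA replicates 1 or 3, or NT vehicle replicate 2, and those of RMI2 and UCP2 without some other libraries too (adjusted p up to 0.14). Of the 61 mitosis genes 14 had a called difference, all with the more negative response in promoter cells, and of the 52 replication genes 6 did. Over all tested genes the share with a called difference in that direction was 0.726%. The called differences of the mitosis genes AURKA and CDK1 were lost under several alternatives, as given further on. Of the 44 developmental factors 6 had a called difference, all with the more positive response in promoter cells, such as NR2F1 (1.15 ± 0.15), SIX2 (1.67 ± 0.25) and ZEB1 (0.89 ± 0.13). The share of all tested genes with a called difference in that direction was 0.81%. The count of differences was sensitive to the test and to single libraries: it was 458 by DESeq2 and 758 with no filter on low counts, 146 with the replicate number as a block, 121 with promoter vehicle replicate 1 left out, 127, 131 and 133 without promoter MPA replicates 1, 2 and 3, 116 and 136 without NT vehicle replicates 2 and 3, and 147 without NT MPA replicate 3.

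Against U1U2 cells, in which PGR was activated through other guides, and with the same promoter libraries, the difference was called for 2 genes, 0.0129% of those tested, while 801 had an unadjusted p under 0.05 and DESeq2 called 58. LAMA2 had 1.74 ± 0.10 in promoter cells and 0.77 ± 0.09 in U1U2 cells, a difference of 0.96 ± 0.13 (adjusted p = 0.00899). DTL (ENSG00000143476, chr1:212035553-212107400, plus strand, GRCh38), a substrate receptor of the ligase that degrades replication-licensing factors, had 19.8, 21.1 and 22.8 CPM in MPA and 40.0, 39.8 and 36.9 CPM in vehicle in promoter cells (-0.87 ± 0.08) and a response of -0.00 ± 0.08 in U1U2 cells, a difference of -0.87 ± 0.11 (adjusted p = 0.00899). The call of each was lost with the replicate block, with only the 4 groups compared in the fit, and without promoter vehicle replicate 1, promoter MPA replicate 1, U1U2 vehicle replicate 3 or U1U2 MPA replicate 2. FOXO1 had 2.73 ± 0.12 in promoter cells and 1.81 ± 0.12 in U1U2 cells, a difference of 0.92 ± 0.17 that was not called (adjusted p = 0.0702). A missing call does not show that the lines responded alike.

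**Figure D4:**
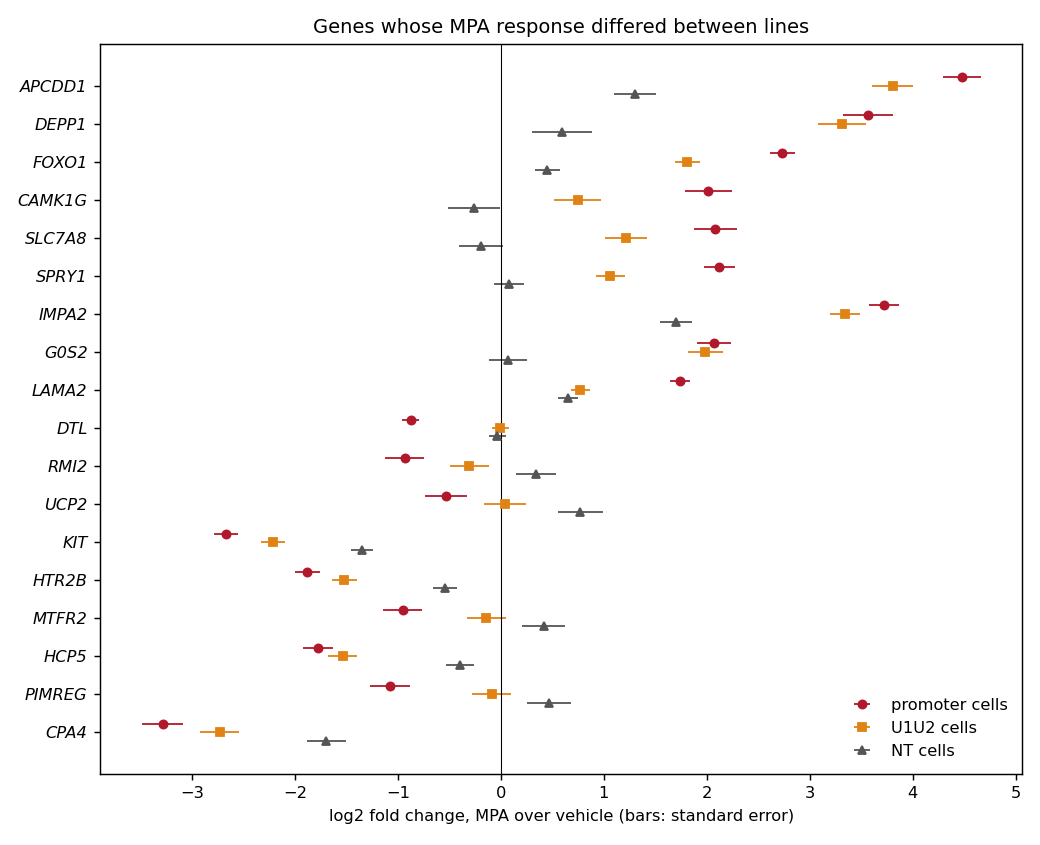
Log2 fold change of MPA over vehicle with its standard error in promoter cells (red circles), U1U2 cells (orange squares) and NT cells (grey triangles), for the genes with the largest called differences at a mean log2 CPM of at least 1, ordered from the most positive to the most negative promoter minus NT difference. APCDD1 is at the top with 4.48 in promoter cells and 1.30 in NT cells, and CPA4 at the bottom with -3.28 in promoter cells and -1.69 in NT cells.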

How the data were processed

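RNA of 18 libraries was sequenced from stranded mRNA libraries, per the labels' protocols. The authors deposited raw counts per gene for 78724 genes, which were used for every test, and a table of log2 CPM values, which matched log2 CPM recomputed from the counts to within 5e-09 for all 10402 genes it holds. Per the submitters' processing notes, the authors used STAR 2.6.0c, hg38, R 4.4.1 and edgeR 4.2.2, with no roles given. The read counter and its strand setting are not given in the sources used here, so reads of overlapping and antisense genes may not be told apart.

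Libraries were grouped by the labels into 6 groups of 3. Here edgeR 4.0.16 (limma 3.58.1, R 4.3.3) fitted all libraries with 1 term per group, TMM factors and a robust quasi-likelihood fit, after a filter on low counts with a minimum count of 10 kept 15558 genes. Genes were called at a Benjamini-Hochberg adjusted p under 0.05 over all tested genes, and past 2-fold with glmTreat at a log2 fold of 1. CPM values use TMM-scaled library sizes, except the sums of cell type markers, which use unscaled totals. Fold changes are MPA over vehicle, and differences are the promoter response minus that of another line. The standard error after each was taken as the size of the log2 estimate divided by the square root of its quasi-likelihood F. The 3 libraries per group limit precision, and counting intervals cover counting error only. Symbols come from the deposited counts, and promoter sequences from RefSeq. Types and coordinates come from GENCODE 29 (GRCh38), matched on the gene ID, which lacks 858 of the tested genes. DESeq2 1.42.0, other factors, no filter, a replicate block, fewer groups and leaving out each library were tried, and the fit was tested on simulated counts.

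Named genes include the 15 largest rises and 15 largest falls among called genes at a mean log2 CPM of at least 1. These also needed a unique symbol not taken from a clone name, and no overlap between the 3 MPA and 3 vehicle libraries. Called genes with the 10 largest gains and losses of CPM were named as well. So were genes with at most 3 counts in 1 group and at least 100 in the other. The 8 largest called differences each way used the same minimum of log2 CPM and also left out clone names. PGR and members of gene lists complete the rule. Others were chosen after their values were seen. Members and lists were chosen with earlier results of these data known. A few genes that this rule names are not reported here.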

Additional observations from a re-analysis of the deposited data

Results flagged for a closer look

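These results drew attention because a test of the difference itself found the MPA response of promoter cells unlike that of another line. The test was called for 239 genes against NT cells and for 2 genes against U1U2 cells, by edgeR's quasi-likelihood test with Benjamini-Hochberg adjustment, and 64 of the genes named here have a called difference from NT cells. On the log2 scale, as promoter response minus NT response, the positive differences were led by RORB at 7.08, IGF1 at 3.85, APCDD1 at 3.17, DEPP1 at 2.97, FOS at 2.35, FOXO1 at 2.28, CAMK1G at 2.27, SLC7A8 at 2.27, SPRY1 at 2.04 and IMPA2 at 2.02. Next in size stood G0S2 at 2.00, ABCA8 at 1.89, OMD at 1.69, SIX2 at 1.67, PLXNA2 at 1.67, CPM at 1.62, RASL10B at 1.56, CCN4 at 1.51, RGCC at 1.49 and HAND2 at 1.41. After these stood CNTN3 at 1.39, ALCAM at 1.33, ADAMTS2 at 1.33, INHBB at 1.31, FKBP5 at 1.18, NR2F1 at 1.15, LAMA2 at 1.08, MFAP5 at 0.96 and TXNIP at 0.95. Below them stood HHIP at 0.90, ZEB1 at 0.89, PLAT at 0.88, NRP2 at 0.86, HGF at 0.82, NPAS2 at 0.72, LAMB1 at 0.71 and GLUL at 0.52. Negative differences, from the smallest in size, began with TEK at -0.43, LAMA4 at -0.52, MCM4 at -0.61, RRM2 at -0.63, WNT2 at -0.66, IFIT3 at -0.67, CDK1 at -0.72, IFIT1 at -0.75, TNFRSF11B at -0.80 and SEMA3A at -0.84. Further down stood DTL at -0.84, MMP1 at -0.89, AURKA at -0.92, SERPINB7 at -0.93, BMP2 at -0.94, SIPA1L2 at -0.98, FGF9 at -1.11, LINC02844 at -1.13, PLAU at -1.13 and RMI2 at -1.28. Further below stood UCP2 at -1.30, KIT at -1.32, HTR2B at -1.34, MTFR2 at -1.37, HCP5 at -1.38, PIMREG at -1.54 and CPA4 at -1.59. The call of these differences was lost under at least 1 alternative for 21 of the 64 genes, which are AURKA, BMP2, CDK1, FOS, GLUL, HGF, HHIP, IGF1, LAMA4, LAMB1, LINC02844, MTFR2, NPAS2, PLAU, RASL10B, RMI2, SERPINB7, TEK, TNFRSF11B, TXNIP and UCP2. Among them FOS (adjusted p = 0.128) and IGF1 (adjusted p = 0.237) lost it only without NT vehicle replicate 2, and HGF (adjusted p = 0.054) and RASL10B (adjusted p = 0.0588) only without promoter vehicle replicate 1. Against U1U2 cells the differences were 0.96 ± 0.13 for LAMA2 and -0.87 ± 0.11 for DTL. Each call there was also lost when single libraries were left out.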

How the results depend on the processing

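The count of called responses, 2333 genes, was 2282 with RLE in place of TMM factors, 2500 with no filter on low counts, 2829 with only the promoter groups fitted and 2492 by DESeq2. DESeq2 shared 2225 of these genes and the fit without the filter 1860. Leaving out 1 library gave 1555 to 2343 called genes, and leaving out promoter vehicle replicate 1 gave 1555, of which 1525 were among the 2333. Genes past 2-fold numbered 196 by DESeq2 and 218 to 233 with 1 library left out, against 247. The promoter minus NT difference was called for 239 genes, for 758 with no filter, for 458 by DESeq2 and for 116 to 268 with 1 library left out. The promoter minus U1U2 difference was called for 2 genes, for 18 with no filter, for 58 by DESeq2, for 0 with only the 4 groups compared, and for 0 to 3 with 1 library left out. The causes were not tested. With the replicate number as a block, the response was called for 1988 genes, 235 genes were past 2-fold, and the differences were called for 146 genes against NT and 0 against U1U2. Deviations of same-numbered promoter MPA and vehicle libraries correlated at 0.199, 0.165 and -0.04, so the numbers were not taken to pair the samples. Of 2374 values of named responses under alternatives, 2341 kept direction and call, 29 lost the call, 4 gained it and 0 reversed. Of 1087 values of named differences from NT, 135 lost the call. Of 92 list counts, 38 moved by over 1.5 times under some alternative. With no filter, oxidative phosphorylation genes called lower numbered 17 and ribosomal protein genes 8, against 0 of each, fatty acid genes called higher 7 against 4, and decidual genes called higher 3 against 6. With only the promoter groups, lower calls numbered 12 against 6 for CDK inhibitors, D cyclins and p53 targets, 6 against 3 for NF-kappa-B and for complement genes, and 4 against 2 for contractile genes. The median of all tested genes moved by at most 0.02 (log2) under any scaling. Depth limits genes near the filter, and a missing call does not show an unchanged gene.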
